A study of Mus musculus with 150 samples.

Results

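The cytosolic ribosomal protein genes of the mouse were taken as every gene symbol starting with Rpl or Rps and a digit, plus Rplp0, Rplp1, Rplp2 and Rpsa, without pseudogene symbols ending in -ps and without the Rps6k kinases. The rule finds 88 of 24341 rows in the bulk table and 86 of 31175 gene rows in the single-cell tables. In bulk these are 46 large-subunit genes, 31 small-subunit genes, 10 copies or paralogs (Rpl3l, Rpl7l1, Rpl10l, Rpl22l1, Rpl36al, Rpl37rt, Rpl39l, Rps4l, Rps27l and Rps27rt) and Rps19bp1, which the symbol rule catches but which encodes a binding partner of Rps19 rather than a ribosomal protein. Rps4l and Rpl37rt are not rows of the single-cell tables. The 77 large- and small-subunit genes are called the core genes here.

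The study asked how progenitor cells of the lung epithelium behave when p53, the stress-response transcription factor that Trp53 encodes, is missing. The bulk libraries are 3 wild type (replicates 1, 5 and 6) and 3 knockout (replicates 7, 8 and 10), from mice of 8 to 12 weeks. All of these mice carried Scgb1a1-CreERTM and the Rosa26-mT/mG reporter and received tamoxifen; the wild types were p53+/+ and the knockouts p53flox/flox per the protocol, although the genotype label reads p53-/-. Sorted cells were positive for GFP and EpCAM and negative for CD31, CD34, CD45 and the dead-cell stain 7AAD. The Scgb1a1 promoter is active in airway club cells and in some alveolar cells, so recombined cells can come from both. The protocol puts sorting 70 days after tamoxifen, while the library titles name day 30. The single cells came from 1 C1 microfluidic chip of each genotype label, with tamoxifen at 250 mg/kg; the labels leave unclear if Trp53 was deleted in the germline or by Cre in the knockout-labelled cells. After wells with a debris or valve remark and cells with under 1000 detected genes were left out, 66 wild-type cells and 61 knockout-labelled cells were kept.

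Cytosolic ribosomal proteins join ribosomal RNA to form a small subunit, which reads the messenger RNA, and a large subunit, which forms the peptide bond. Their genes are transcribed at high and coordinated levels, and many of their transcripts start with a run of pyrimidines, the terminal oligopyrimidine tract, through which their translation follows growth signals. Several members, among them Rpl5, Rpl11, Rpl23 and Rpl26, also act outside the ribosome on Mdm2, the ubiquitin ligase of p53, or on p53 itself.

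Trp53 was measured at 16.6, 22.2 and 21.7 FPKM (length- and depth-scaled fragments, as the authors deposited them) in the wild-type libraries and at 8.63, 9.98 and 7.56 FPKM in the knockout libraries, without overlap (log2 fold change -1.12 ± 0.149 SE, limma adjusted p = 0.144). In single cells the direction was the opposite, since 6.06% of the cells on the wild-type chip and 26.2% of those on the other had Trp53 at a TPM of 1 or more, so genotype is given as a label for the cells throughout. Summed FPKM over rows with a value in every library was 424751 to 581094 per library, and read depth cannot be known from FPKM. Marker genes of other cell types differed in mean between the genotypes in bulk, although no tested gene of these lists had a limma adjusted p under 0.05. Summed over 10 ciliated-cell genes, the level was 709, 216 and 219 FPKM in wild type (replicates 1, 5 and 6) and 671 to 1158 in knockout. All 10 had a higher knockout mean. All 6 immune genes (589 to 773 in knockout, 956 to 2209 in wild type), all 4 endothelial, all 6 fibroblast and all 8 measured alveolar type 2 genes (6221 to 6762 in knockout, 6990 to 12156 in wild type) had lower knockout means. Endothelial sums were 13.3 to 21.6 FPKM in knockout and 26.7 to 69.95 in wild type, with Pecam1 and Cdh5 under 1 in every library, and fibroblast sums were 35.01 to 38.5 and 42.1 to 100.9. Cd74 made up most of the immune sums, at 2153, 897 and 1259 FPKM in wild type and 583, 748 and 559 in knockout, and on the chips it was detected in 100% of the wild-type and 93.3% of the knockout-labelled Sftpc-dominant cells. Sums over 8 club-cell genes were 28031 to 93147 in wild type and 63054 to 81004 in knockout. Their part in the results below was not tested, and in bulk libraries fewer cells of a type and less RNA per cell cannot be told apart.

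The bulk comparison turns on Rps27, a zinc-finger protein of the small subunit, and its copies, so their coding sequences are shown first. Rps27rt is a retrogene, an intronless copy made from a messenger RNA. Its 255 coding bases had 0 differences from those of Rps27 in the GENCODE M21 annotation of GRCm38. Rps27l, a paralog known as a p53 target, differs at 61 of 255 bases (76.1% identity), and its longest run shared with Rps27 at the same position is 11 bases. Capitals mark the bases of Rps27l that differ from Rps27. Rps27 lies at chr3:90212671-90213651 (minus strand), Rps27rt at chr9:114982366-114982739 (minus strand) and Rps27l at chr9:66946086-66949512 (plus strand), by the transcripts used.
Rps27 and Rps27rt: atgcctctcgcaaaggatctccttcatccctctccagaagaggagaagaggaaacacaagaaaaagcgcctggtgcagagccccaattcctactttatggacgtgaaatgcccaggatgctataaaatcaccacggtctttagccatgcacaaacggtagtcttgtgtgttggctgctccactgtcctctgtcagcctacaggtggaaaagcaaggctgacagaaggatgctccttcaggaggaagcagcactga
Rps27l: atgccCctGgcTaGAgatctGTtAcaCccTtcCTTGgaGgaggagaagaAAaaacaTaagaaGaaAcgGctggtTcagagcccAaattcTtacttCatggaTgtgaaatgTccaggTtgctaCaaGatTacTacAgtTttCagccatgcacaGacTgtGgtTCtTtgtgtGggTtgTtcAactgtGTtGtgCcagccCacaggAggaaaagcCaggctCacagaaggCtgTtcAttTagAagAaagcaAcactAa
Cut into windows of 75 bases, the sequenced read length, 98.5% of the Rps27 transcript and 90.3% of the Rps27rt transcript matched another gene's transcript without a mismatch, against 12.0% for Rps27l.

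The start sites of the members were read in RefSeq on GRCm38.p6, 15 bases on each side, because a pyrimidine-rich start is what these genes are known to share. The motif CTTTC on the coding strand was present in 17 of 69 start sites of 59 core genes (24.6%), in 1330 of 32851 start sites of all genes (4.05%) and in 3 of 75 sites of mitochondrial ribosomal protein genes (4.00%). On the opposite strand the shares were 4.35% of core sites and 3.60% of all sites. A C stood at the start base in 31.9% of core sites and 16.3% of all sites. The windows of the Rps27 family and of Rps19bp1 are shown with the motif in capitals. No match says only that these letters are not in this window.
Rps27 (chr3:90213634-90213663, minus strand): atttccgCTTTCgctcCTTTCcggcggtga
Rps27rt (chr9:114982725-114982754, minus strand): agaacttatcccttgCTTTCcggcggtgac
Rps27l (chr9:66946071-66946100, plus strand): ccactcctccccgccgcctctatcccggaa
Rps19bp1 (chr15:80264292-80264321, minus strand): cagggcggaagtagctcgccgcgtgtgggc

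In the bulk libraries the ribosomal protein genes did not pass the test in either direction. Values were compared as log2(FPKM + 1) with limma across 11957 genes, adjusted by Benjamini-Hochberg and called at 0.05; on this scale the change of low genes is understated. Of the 88 members, 84 passed the filter on low values, and 0 of these 84 passed the threshold, where 1 of all 11957 genes did (0.00836%). At an unadjusted p under 0.05 there was 1 member of 84, against 13.1% of all genes, and the groups failed to overlap for 1 member, against 19.3% of all genes (10.2% lower and 9.04% higher in knockout). The median log2 fold change, knockout minus wild type, was 0.09 over the members, 0.09 for the large subunit, 0.10 for the small subunit and 0.01 over all genes. Of the 84 members, 65 had a positive and 19 a negative value, where 6156 of all 11957 genes were positive and 5801 negative. The core-gene median of 0.09 was -0.16 if wild-type replicate 1 was left out and -0.030 if knockout replicate 10 was. The count of 0 calls also held under library weights and without wild-type replicate 1, settings under which 913 and 408 of all genes were called. The labels tie no library to an animal of its own, so the p-values here reflect library-to-library spread alone, and this may be technical.

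**Figure D1:**
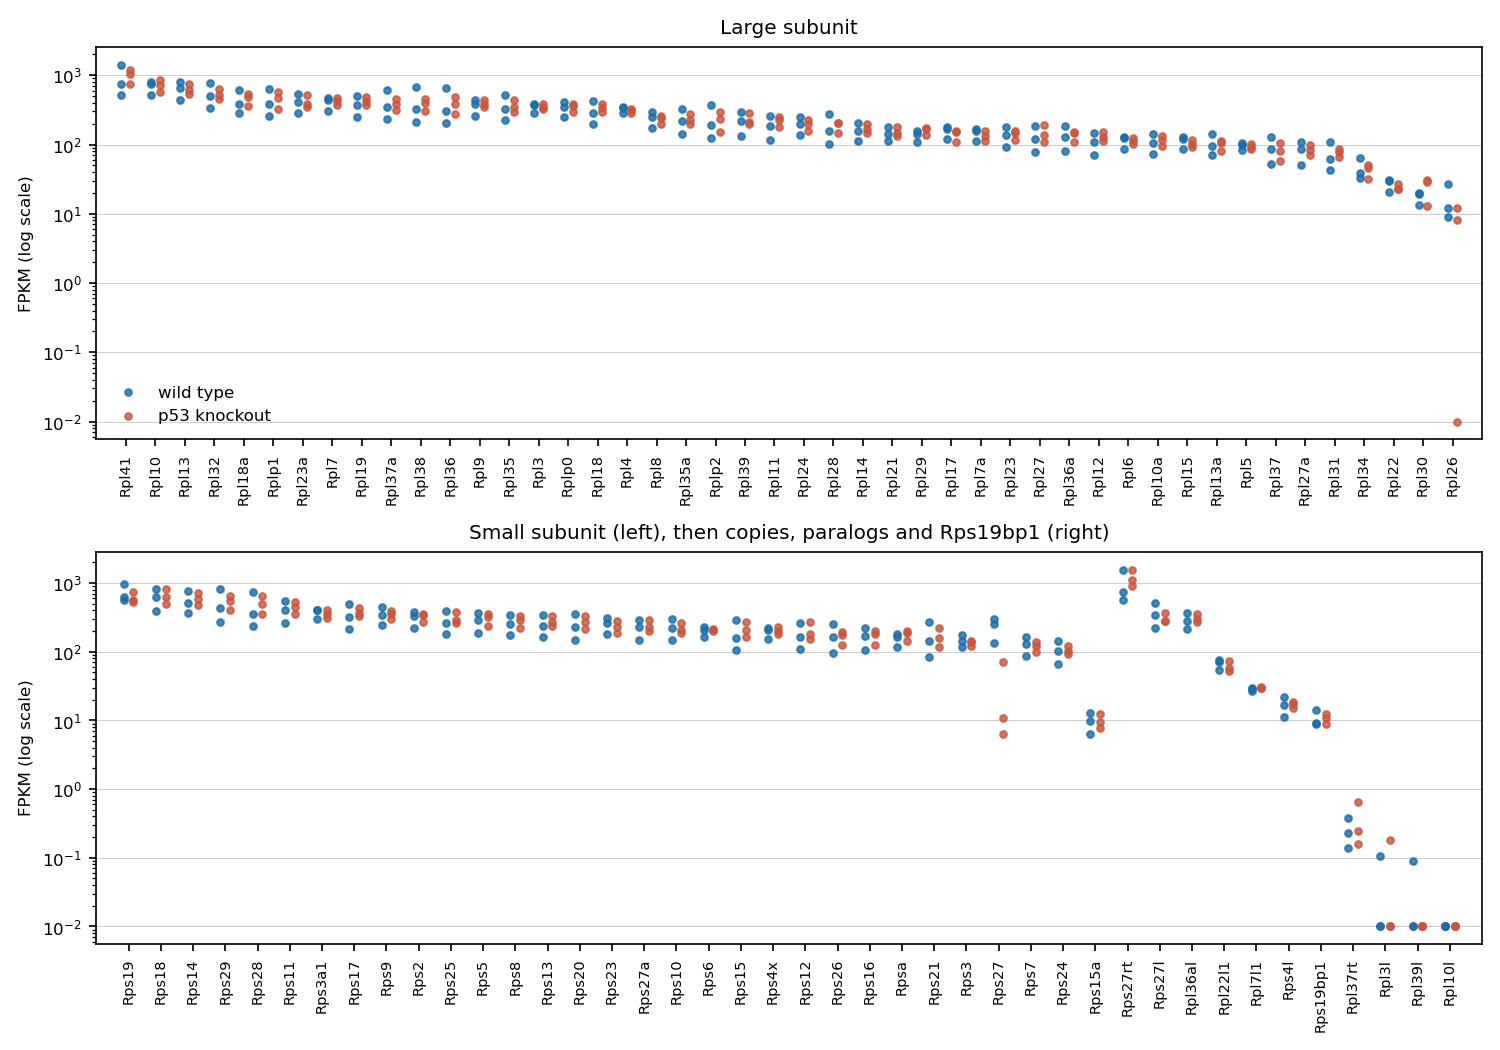
FPKM (log axis) of each of the 88 members in the 3 wild-type (blue) and 3 knockout (red) libraries, ordered by mean within each class; 1 point is 1 library. The groups overlap for the tested members except Rps27, whose 3 knockout libraries lie below the wild-type libraries, and points at 0.01 are at the lowest value the deposited table holds.

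Taken as a share of summed FPKM, the members held 3.45, 3.88 and 5.20% in the wild-type libraries and 3.83, 4.31 and 4.90% in the knockout libraries. The knockout values lay inside the wild-type range. The means were 4.18% ± 0.909 and 4.35% ± 0.539 (SD, n = 3 each; two-sided exact permutation p = 0.8, where 3 against 3 cannot go below 0.1). The large subunit (2.20% ± 0.456 and 2.30% ± 0.261, exact permutation p = 0.8) and the small subunit (1.65% ± 0.354 and 1.68% ± 0.219, exact permutation p = 1; n = 3 each) gave the same picture, and the 3 tests had adjusted p-values of 1. The difference of 0.17 percentage points for all members was -0.191 if wild-type replicate 1 was left out and -0.106 if knockout replicate 10 was. The ratio of large- to small-subunit FPKM stayed between 1.33 and 1.38 in the 6 libraries.

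Rps27 was the member that departed most. It was measured at 134, 256 and 298 FPKM in wild type and at 6.44, 70.2 and 10.9 FPKM in knockout. Every knockout library was below every wild-type library, but the value did not pass the test over all genes (log2 fold change -3.56 ± 0.844 SE, unadjusted p = 0.00502, limma adjusted p = 0.308, range over the alternatives 0.0933 to 0.921; exact permutation p = 0.1). Its retrogene copy Rps27rt read 573, 741 and 1532 FPKM in wild type and 902, 1121 and 1567 FPKM in knockout, with overlapping groups (log2 fold change 0.43 ± 0.403 SE, limma adjusted p = 0.704). The deposited table gives both rows the locus chr3:90212666-90213648, that of Rps27, while GENCODE places Rps27rt on chromosome 9. Adding the rows gave 707, 997 and 1829 FPKM in wild type and 908, 1191 and 1577 FPKM in knockout. The summed groups overlapped throughout, with a ratio of means of 1.04 (exact permutation p = 1) and a fitted log2 fold change of 0.13. The summed locus did not show the lower knockout level that the Rps27 row showed.

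The paralog Rps27l, with few windows shared with another gene, stood at 224, 344 and 513 FPKM in wild type and 281, 282 and 362 FPKM in knockout. The knockout libraries lay within the wild-type range (log2 fold change -0.15 ± 0.305 SE, limma adjusted p = 0.878), and the value was 0.14 without wild-type replicate 6.

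At 3 further loci a core gene shared its deposited position with a row that GENCODE lists as a processed pseudogene on another chromosome, and that row held most of the FPKM. They are Rpl26 with Gm15772 (chromosome 5), Rpl30 with Gm12191 (chromosome 11) and Rpl34 with Rpl34-ps1 (chromosome 6). Other core genes also shared a deposited position with rows of lower mean FPKM. Rps15 shared its deposited position with 48 rows, 3 of them of higher mean FPKM, which GENCODE does not place elsewhere. These rows were not examined. Rpl26, known for promoting p53 translation, read 8.88, 12.1 and 26.8 FPKM in wild type and 0.01, 12.1 and 8.01 FPKM in knockout, where 0.01 is the lowest value in the table and may be a failed estimate. Gm15772 at the same position read 191, 293 and 431 FPKM in wild type and 280, 339 and 404 FPKM in knockout. The knockout libraries of the pseudogene row fell within the wild-type range, and the log2 fold change of Rpl26 turned from -1.64 for the row alone (limma adjusted p = 0.545) to 0.18 for the sum. Without knockout replicate 7, the library at 0.01, the value for the row alone was -0.49. The ratio of knockout to wild-type means of the sums was 1.08 for Rpl26, 1.11 for Rpl30 and 1.07 for Rpl34.

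**Figure D2:**
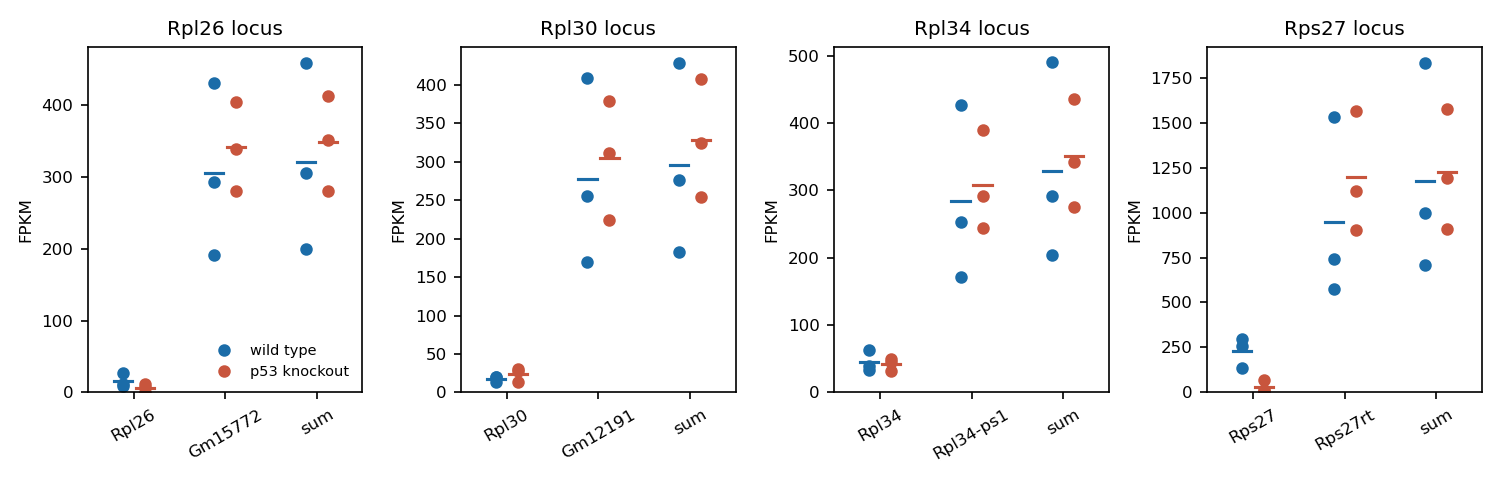
FPKM of the 4 core genes that share a deposited position with a row of higher mean FPKM that GENCODE places elsewhere. Shown are the gene, that row and their sum, in the wild-type (blue) and knockout (red) libraries. Points are libraries and bars are means of 3. Rps27 is low in knockout as a row of its own, and the summed libraries of the groups overlap at all 4 loci.

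Rpl5, Rpl11 and Rpl23, which act on Mdm2, had overlapping groups. Rpl5 read 82.9, 107 and 99.6 FPKM in wild type and 87.5, 91.1 and 101 FPKM in knockout. Rpl11, its partner on Mdm2, read 118, 186 and 261 FPKM in wild type and 178, 226 and 247 FPKM in knockout. Rpl23 read 90.9, 139 and 179 FPKM in wild type and 118, 144 and 159 FPKM in knockout. None of these 3 passed the test (log2 fold changes -0.04, 0.26 and 0.09; limma adjusted p = 0.922, 0.756 and 0.921). The Rpl11 value was -0.033 without wild-type replicate 1, and that of Rpl5 was 0.032 without wild-type replicate 5. Of 1971 windows of the Rpl5 transcript, 92.5% matched another gene's transcript, so its own share of those reads depends on how the authors' tools placed them.

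Among the other core genes the range was narrow. Beside the shared-locus genes, the lowest fold changes were those of Rps19 (-0.19), whose human counterpart is mutated in Diamond-Blackfan anaemia, Rpl17 (-0.16) and Rpl22 (-0.14), which can be replaced in the ribosome by its paralog Rpl22l1. Rpl22l1 itself had a value of -0.12, with 55.3, 70.9 and 75.5 FPKM in wild type and 58.4, 52.6 and 73.9 FPKM in knockout. The highest were Rpl12 (0.30), a stalk-base protein, Rps15 (0.29), whose deposited position holds 48 other rows, Rps28 (0.29) and Rpl11. Rps28 read 236, 354 and 754 FPKM in wild type and 359, 499 and 641 FPKM in knockout, the knockout libraries inside the wild-type range, and its ratio of wild-type replicate 6 to replicate 1 was the highest of the core genes compared by length. The value of Rpl12 ranged from 0.025 to 0.55 when each library was left out in turn. The stalk proteins Rplp0, Rplp1 and Rplp2, which recruit elongation factors, had values of 0.07, 0.17 and 0.08. Rps6, the substrate of the S6 kinases, had 0.06, and Rpsa, also known as the laminin receptor, 0.23. Limma adjusted p-values were 0.686 or above for all genes named in this paragraph.

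The 4 members under the filter on low values stood below 1 FPKM in every library. Rpl3l, a striated-muscle paralog, was at 0.01 FPKM in 4 of 6 libraries and at most 0.183. Rpl39l and Rpl10l, testis paralogs, were at most 0.0913 and 0.01 FPKM, and Rpl37rt at most 0.650, so these 4 were not tested. Rps19bp1 read 8.80, 9.20 and 14.1 FPKM in wild type and 8.76, 10.9 and 12.4 FPKM in knockout, and 0% of its windows matched another gene. Rpl7l1, a relative of Rpl7 that works in ribosome assembly, had the smallest ratio of highest to lowest library of the tested members, at 28.6, 26.6 and 29.9 FPKM in wild type and 30.1, 29.5 and 30.7 FPKM in knockout.

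The spread that the core genes shared followed the libraries rather than the genotypes. Leaving out the 4 shared-locus genes, 71 of 73 core genes were lowest in wild-type replicate 1, 60 were highest in wild-type replicate 6, and for 61 the knockout range lay inside the wild-type range. The spread was larger for shorter genes. From wild-type replicate 1 to replicate 6 the median ratio was 2.88 for 8 genes with under 300 coding bases, 2.13 for 43 genes with 300 to under 600 and 1.53 for 22 genes with 600 or more. From knockout replicate 7 to replicate 10 the medians were 1.60, 1.43 and 1.30. Across the 73 genes Spearman's rho with coding length was -0.83 and -0.65; genes of one library share its preparation and are not independent replicates. Rpl38, a short large-subunit protein, reached 3.13 in wild type, and Rpl4, the core gene of greatest coding length, 1.18. The order was not particular to the members. Among other genes with a mean of at least 50 FPKM the wild-type medians were 1.83 (90 genes), 1.43 (373) and 1.09 (1005) over the same length classes. Wild-type replicate 1 also had the lowest club-cell sum and the highest alveolar type 2, immune, endothelial and fibroblast sums of the 6 libraries. Its ciliated sum was 709 FPKM, against 216 and 219 in wild-type replicates 5 and 6. The part of these differences in the spread was not tested. The deposited column name of wild-type replicate 6 lacks the prefix second_ that all other bulk libraries carry. What the prefix stands for is not stated, and its part in the spread was not tested.

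**Figure D3:**
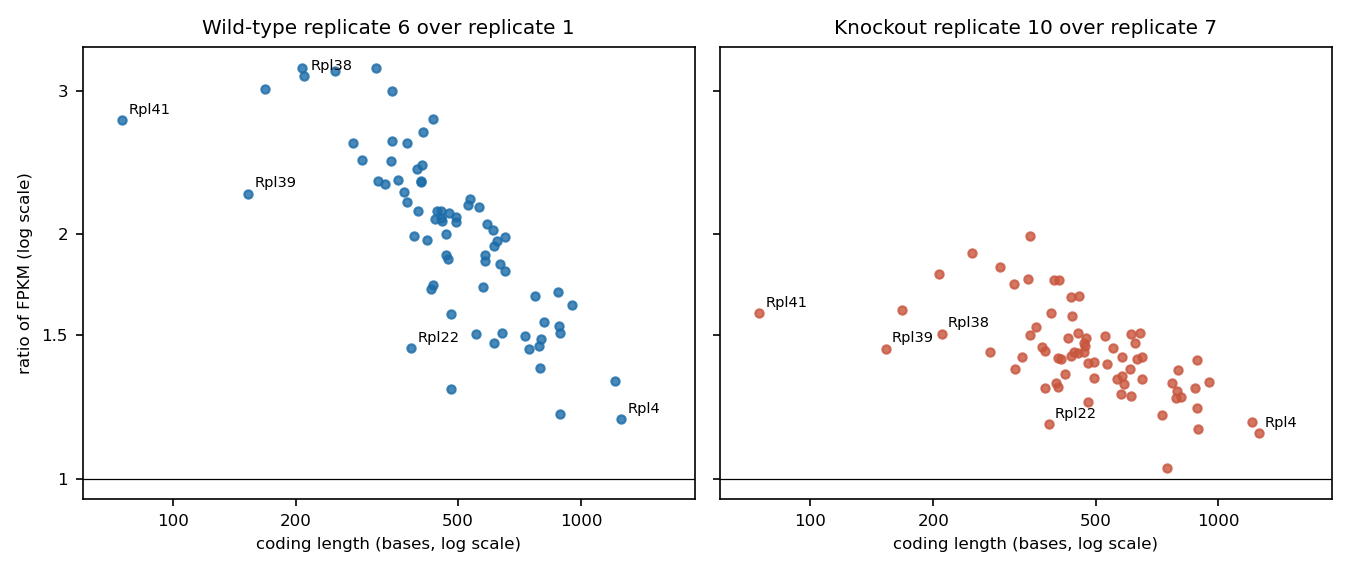
Ratio of FPKM between 2 libraries of the same genotype (log axis) against coding length in bases (log axis) for 73 core genes; wild-type replicate 6 over 1 on the left, knockout replicate 10 over 7 on the right, 1 point per gene, with a line at a ratio of 1. Short genes such as Rpl38 lie high and long genes such as Rpl4 lie low, with Spearman's rho of -0.83 and -0.65.

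Genes that work with the ribosome gave the following background in the same fit. Fau and Gnb2l1, ribosomal proteins with other symbols, had values of 0.35 and 0.00. Of 34 ribosome biogenesis genes tested, 28 were positive with a median of 0.16; 12 (35.3%) did not overlap between groups, where 19.3% of all genes did not, and 0 passed the adjusted threshold. Nolc1, a nucleolar chaperone, read 7.36, 8.03 and 8.17 FPKM in wild type and 10.5, 10.4 and 10.8 FPKM in knockout (limma adjusted p = 0.308). Of 14 genes of RNA polymerase I, which makes the ribosomal RNA, 10 were positive with a median of 0.10, and 5 (35.7%) did not overlap. Of 77 mitochondrial ribosomal proteins, 53 were positive with a median of 0.05, and 5 (6.49%) did not overlap. Of 16 elongation and other factors known for the same pyrimidine start, 6 were positive with a median of -0.03, and 1 (6.25%) did not overlap. These 3 lists also had 0 calls past the adjusted threshold. Of all 11957 genes tested, 6156 were positive.

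In single cells the ribosomal protein genes were detected in nearly all cells, and their share of each cell's messenger RNA varied more on the wild-type chip. Each genotype label is 1 chip, so cells are not replicates of it and no test is given. The share of gene TPM (abundance scaled by the authors to a fixed total per cell) had a median of 4.79% in wild-type cells (0.210 to 12.8%) and 4.19% in knockout-labelled cells (2.65 to 7.63%). The chips overlapped over the whole range of the second. The spread over cells was an SD of 2.24 and 0.861 percentage points. Large- and small-subunit shares went together across cells, with Spearman's rho of 0.92 over 66 wild-type cells and 0.76 over 61 knockout-labelled cells; both shares come from 1 library per cell. The medians of detected members were 81 in both chips, but 10 wild-type cells had under 72 of 86 rows, down to 19, and 0 knockout-labelled cells did. Of those 10, 8 had under 2000 detected genes. Spike-in RNA took a median of 13.2% of TPM in wild-type cells and 6.28% in knockout-labelled cells.

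Cells were divided by whether Scgb1a1, the club-cell secretory protein, or Sftpc, the alveolar type 2 surfactant protein, had the higher TPM. This gave 49 and 17 cells in wild type and 46 and 15 in knockout-labelled cells; the genes were within 4-fold of each other in 6 and 15 cells. In both chips all 10 club genes were lower and all 11 alveolar type 2 genes higher in Sftpc-dominant cells. These lists include Scgb1a1 and Sftpc, whose direction was set by the division itself. The ribosomal protein share had a median of 4.11% in Scgb1a1-dominant and 5.14% in Sftpc-dominant wild-type cells, and of 3.98% and 4.41% in knockout-labelled cells. The ranges overlapped widely. Without Scgb1a1, Sftpc and the mitochondrially encoded rows in the total, the difference turned from 1.04 to -0.595 percentage points in wild type and from 0.43 to -0.269 in knockout-labelled cells, so its direction follows what the total holds. Sftpc-dominant cells had fewer detected genes (medians of 2633 and 3154 in wild type, 3196 and 3824 in knockout-labelled cells) and a larger spike-in share (22.1 and 11.04%, 15.4 and 5.68%).

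**Figure D4:**
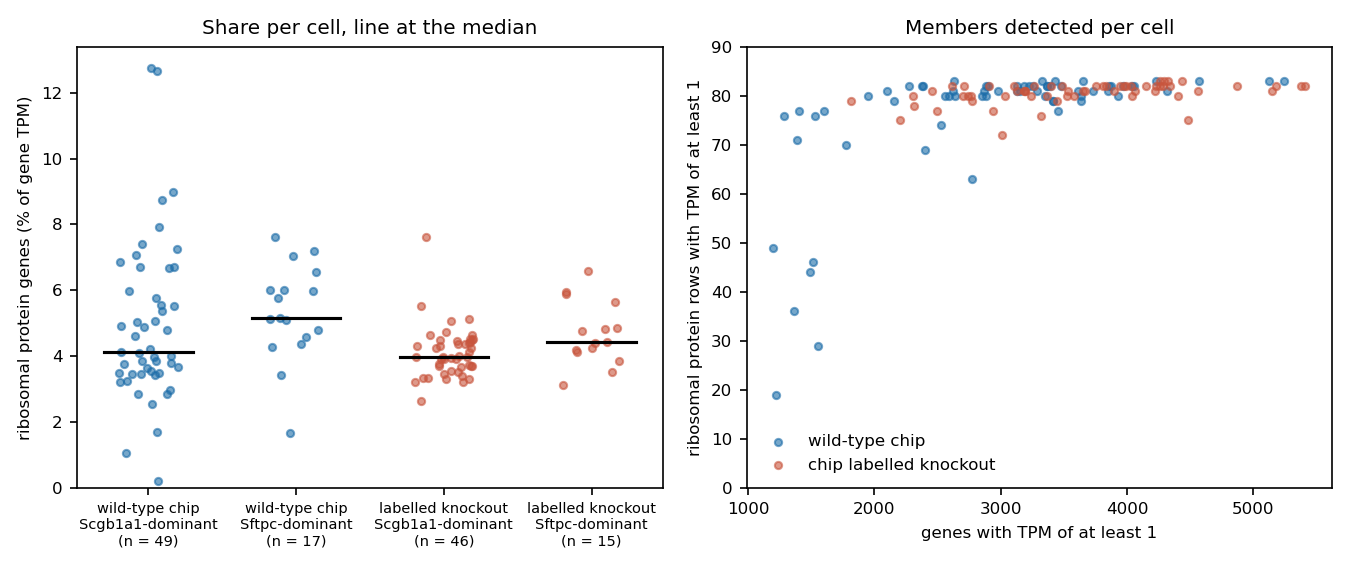
Left, share of gene TPM held by the members in each cell, by chip and dominant marker, with a line at the median; right, members detected against genes detected per cell. The wild-type cells spread from 0.210 to 12.8%, and the cells with under 72 members detected are all on the wild-type chip.

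Gene by gene, 82 members had a TPM of at least 1 in at least 30% of the cells of a chip. The median difference of mean log2(TPM + 1), labelled knockout minus wild type, was 0.45 over these members and 0.44 over 4401 genes with the same detection. The sign rested on cells with few detected genes: with a minimum of 2000 genes, which left 53 wild-type cells and 60 labelled knockout, the median was -0.16, with 62 of 82 members negative, against 0.18 over all genes. No common direction by genotype label can be read from these chips. Against the median of the members, 2 of 82 departed by at least 1, where 7.36% of all genes lay that far away (5.54% higher and 1.82% lower). Rps12 was higher in knockout-labelled cells (6.77 ± 3.13 and 5.31 ± 3.33, SD over 61 and 66 cells) and Rpl27 was lower (3.58 ± 1.83 and 4.28 ± 2.33). Both have abundant pseudogene rows. Rps12-ps3 held 62.3% of the sum with Rps12 in wild type and 29.4% in knockout-labelled cells, and Rpl27-ps3 held 83.7% and 93.2% of the sum with Rpl27. With pseudogene rows added, 0 members departed, and the differences were 0.22 for Rps12 and 0.38 for Rpl27.

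Rps27 showed no low level in the knockout-labelled cells. The mean TPM of Rps27 was 1362 on the wild-type chip and 1341 on the other, with detection in 95.5% and 100% of cells. Rps27rt had means of 164 and 95.1 TPM, which is 10.8% and 6.62% of the pair. The difference of mean log2(TPM + 1) for Rps27 was 0.71, and -0.08 among cells with at least 2000 genes. In these tables, unlike the bulk table, most of the pair was assigned to Rps27.

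By cell state, most members were lower on the log scale in Sftpc-dominant cells, with a median difference of -0.54 in wild type (67 of 82 negative) and -0.39 in knockout-labelled cells (58 of 82 negative). With a minimum of 2000 genes per cell, which 5 of the 17 wild-type Sftpc-dominant cells did not reach, the medians were -0.26 (52 of 82 negative) and -0.38 (57 of 82), against -0.04 and -0.09 over all genes. Over all 4401 genes the medians were -0.19 and -0.15, and the median ratio of mean TPM over the members was 0.897 and 1.04. In both chips, 3 of 82 members lay lower than the member median by at least 1, where 4.79% of all genes did so (11.9% in either direction). They were Rps27l, Rps2, a protein near the entry of the messenger RNA channel, and Rps13, a small-subunit protein that contacts the large subunit. Of the members, 0 lay higher by that much in both chips, against 7.13% of all genes. All genes were counted from the member medians too, which lie below their own. Their median detection was 40.9% of wild-type and 50.8% of knockout-labelled cells, against 93.9% and 100% for the members.

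Rps27l had the largest difference between the states on the wild-type chip, whereas on the chip labelled knockout Rpl28 did (-2.54). For Rps27l the mean log2(TPM + 1) was 3.47 ± 4.01 in Sftpc-dominant and 6.51 ± 3.29 in Scgb1a1-dominant wild-type cells (SD over cells). In knockout-labelled cells the Rps27l values were 3.79 ± 3.25 and 6.21 ± 2.72. It was detected in 47.1% and 85.7% of the wild-type cells and in 66.7% and 89.1% of the knockout-labelled cells. The spread over cells was about as large as the differences. The differences, -3.05 and -2.42, were -3.39 and -2.75 with a minimum of 2000 genes. Rps2 had differences of -2.18 and -2.39, and -1.54 and -2.36 with that minimum. Rps13 had -1.65 and -2.18; with that minimum its wild-type value of -1.14 was no longer 1 below the median, and Rpl15, a large-subunit core protein, joined Rps2 and Rps27l. Rps2-ps6 held 17.7% of the sum with Rps2 in wild type and 3.09% in knockout-labelled cells, and adding pseudogene rows left the same 3 members.

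**Figure D5:**
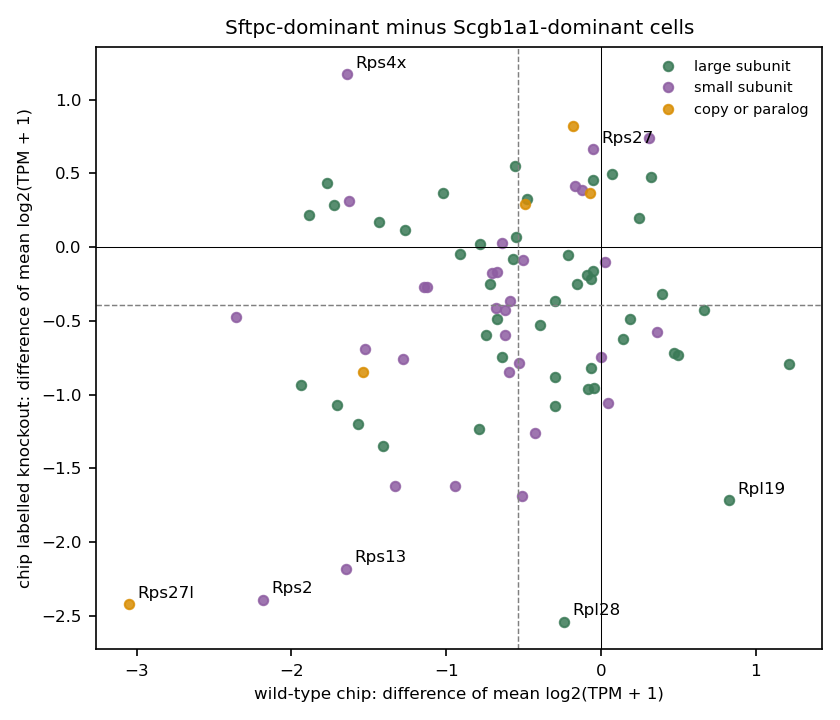
Difference of mean log2(TPM + 1), Sftpc-dominant minus Scgb1a1-dominant cells, in the wild-type chip (x axis) and the chip labelled knockout (y axis) for 82 members; dashed lines are the member medians of -0.54 and -0.39. Rps27l, Rps2 and Rps13 lie low in both chips, Rps4x and Rpl19 lie more than 1 from the medians in opposite directions in the chips, and Rpl28 lies low in the chip labelled knockout only.

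The order of levels among members was alike in the chips and less so between cells and bulk. Rps19, Rpl41 and Rps27 had the highest mean TPM in both chips (2449, 2002 and 1362 in wild type). Rpl41, a peptide of 75 coding bases, also had the highest core FPKM in bulk. Across the 77 core genes, Spearman's rho between the chips was 0.95, and between mean FPKM in bulk and mean TPM in cells it was 0.58, or 0.68 without the 4 shared-locus genes; the bulk and cell values differ in unit, aligner and annotation. Relative to the median core gene, Rpl26 (log2 ratio -4.86), Rps15a (-3.88), Rpl30 (-3.29), Rpl34 (-2.58) and Rps27 (-2.46) stood lowest in bulk. All 4 shared-locus genes are among these 5. They were picked because a row at the same position had a higher mean bulk FPKM than the gene and GENCODE places that row elsewhere. A low place in bulk, and the rho without them, thus partly follow from that choice. Rps20 (3.10), Rpl10 (2.80), Rpl27 (2.58) and Rpl35 (2.31) stood highest in bulk. Rpl10-ps3 and Rpl27-ps3 took 73.97% and 83.7% of the sums with Rpl10 and Rpl27 in the wild-type cells. Rps15a, at 6.41 to 12.7 FPKM in bulk and a mean TPM of 267 and 284 in cells, shared its deposited bulk position with 0 other rows.

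The restricted paralogs were as low in single cells as in bulk. Rpl3l had a mean log2(TPM + 1) of 0.00 in both chips, and Rpl10l was detected in 0% of cells, which allows a share of cells with detection of up to 4.55% and 4.92% by counting error alone. For Rpl39l the share of cells was 0% on the wild-type chip and 1.64% on the other. Rps19bp1 was detected in 18.2% and 16.4% of cells. Rpl22l1 (74.2% and 85.2%) and Rpl7l1 (81.8% and 85.2%) were detected in most cells, at mean log2(TPM + 1) of 4.08 and 4.86 for Rpl22l1 and 3.01 and 3.22 for Rpl7l1. Rpl7l1 also had a low correlation across cells with the median of the other members, 0.23 over wild-type cells and -0.28 over knockout-labelled cells. This was not particular to it. Rpl28 (0.21) and Rps19bp1 (0.18) were lower over wild-type cells. Over knockout-labelled cells core genes such as Rpl27a (-0.13) and Rpl7a (-0.040) were also below 0, and the highest member, Rpl21, reached 0.498. A gene and the member median of a cell share its library.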

How the data were processed

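Bulk values are FPKM made by the authors. Per the submitters' processing notes, the tools were TopHat, Bowtie2 and Cufflinks and the build was mm10; how Cufflinks scaled the libraries is not stated there. Single-cell values are TPM made by the authors. Per the submitters' processing notes, RSEM 1.2.20 ran with Bowtie 1.1.1 against GRCm38. Each genotype label has its own, separately normalized table. Neither unit is a read count, so count models were not applied and depth is unknown. Per the labels' protocols, 92 ERCC spike-in RNAs were added on the chips, and captured wells were inspected by hand for doublets and debris; no doublet caller was run.

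Bulk log2(FPKM + 1) values were fitted with limma 3.58.1 under R 4.3.3, two-sided, using eBayes with its trend and robust options. Genes entered if 3 or more of the 6 libraries had an FPKM of 1 or above and no entry was marked. The deposited table marks 20 entries in 12 genes in place of a value (Scgb1a1, Cyp2f2, Sftpc, Sftpa1 and Lyz2 among them), and 0 members. Shares used exact permutation tests. The procedure was tested on simulated data. Cells needed at least 1000 genes with a TPM of at least 1, and 7 wild-type and 6 knockout-labelled cell columns were left out. No column was matched to 2 knockout-labelled samples, which are not analysed here. A member departed where its difference lay at least 1 from the members' median. Windows of 75 bases and coding sequences came from GENCODE M21.

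Named genes are those of largest fold change, highest or lowest level, past the size rule, or of a known role with Mdm2, p53 or as a paralog; Rps28, Rpl38, Rpl4, Rps15a and Nolc1 were chosen after their values were seen. Members and lists were chosen with earlier results of these data known. Alternatives varied the pseudocount, filters, scaling, weights, libraries, pseudogene rows and the minimum of genes; summing rows at a shared locus, adding Rps27rt to Rps27 and the minimum of 72 members were chosen after seeing the data. The result of 1 gene of these lists is not reported here.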

Additional observations from a re-analysis of the deposited data

Results flagged for a closer look

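Rps4x, an X-linked small-subunit gene, differed between cell states in opposite directions in the chips: Sftpc-dominant minus Scgb1a1-dominant cells gave -1.64 in mean log2(TPM + 1) on the wild-type chip and 1.17 on the chip labelled knockout. The difference between the chips was not tested. With a minimum of 2000 detected genes the values were -0.48 and 1.1.

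Wells outside the comparisons also held signal from the members. The positive off-chip control of the chip labelled knockout had a ribosomal protein share of 4.87% of gene TPM with 7953 detected genes, while the negative control had 0 members detected. The share of the negative control was 2.06%, with 2 detected genes and 99.998% of its TPM in spike-in RNA. The wells left out for a debris or valve remark had shares of 3.96, 4.26 and 4.46% on the chip labelled knockout and 2.86% on the wild-type chip, with 80 to 82 members detected.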

How the results depend on the processing

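No paired analysis was possible because the bulk groups share no replicate numbers and the cell numbers are only accession order. In bulk, 0 members passed the threshold under every alternative run. Over leaving out 1 library each, the share difference ranged from -0.191 to 0.681 percentage points and the core median from -0.16 to 0.33. Summing rows at a shared locus turned Rps27 to 0.13 and Rpl26 to 0.18. Over leaving out 1 library each, log2 fold changes ranged from -0.033 to 0.54 for Rpl11, -0.088 to 0.75 for Rps28 and -0.049 to 0.68 for Rps15, with the lower end without wild-type replicate 1. They ranged from -0.35 to 0.044 for Rps19 and -0.45 to 0.14 for Rps27l, with the upper end without wild-type replicate 6, from -0.15 to 0.032 for Rpl5 (upper end without wild-type replicate 5), and from -0.34 to 0.0082 for Rpl17 (upper end without knockout replicate 7). The cause of these turns was not tested.

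In cells, the genotype median of 0.45 was -0.16 with at least 2000 genes and 0.80 with no minimum, and Rps27 was -0.08 with at least 2000 genes. The members departing by genotype label (2) numbered 0 at a pseudocount of 10, 4 at 0.1, 0 with pseudogene rows added, 1 with at least 2000 genes and 1 with no minimum; those departing by state (3) numbered 6 at a pseudocount of 0.1 and 5 with markers at least 4-fold apart. Rpl27 turned to 0.38 with pseudogene rows added. Without Scgb1a1, Sftpc and mitochondrial rows, the share differences were -2.04 by genotype label, and by state -0.595 in wild type and -0.269 in knockout-labelled cells. Of 356 alternative values, 331 were counted as unchanged. This includes counts that stayed close and some values whose shift was smaller than the spread over libraries or cells. The core median was counted so although its sign turned without wild-type replicate 1. FPKM and TPM carry no depth, so precision per gene is unknown, and 1 chip per genotype label gives no error.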
